A study of Mus musculus with 24 samples.

Results

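Cells sorted as CD45+CD8+ from pancreatic tumors were compared with cells sorted in the same way from the spleen, both from mice given vehicle. The comparison holds 6 of the 24 bulk RNA-seq libraries of the series, 3 from tumors and 3 from spleens, chosen by their labels for tissue, sorted population and treatment. All mice were TCR alpha-/-, with the gene for the α chain of the αβ T cell receptor disrupted, and no wild-type mice are among the samples. Each mouse carried an orthotopic pancreatic tumor grown from M8 organoids kept by live passage, and vehicle was the control arm of a test of LCL161, an antagonist of the inhibitors of apoptosis cIAP1 and cIAP2. In the treated arm LCL161 was given by mouth at 75 mg/kg every 3 days from day 4, and tumors and spleens were taken on day 12 after 3 doses. Tumor LCL161 CD8, spleen LCL161 CD8, tumor vehicle CD4 and spleen vehicle CD4 libraries, 3 each, are used below to set the tissue difference beside others. Whether the replicates came from separate mice is left unstated by the labels. P-values here reflect only the spread within the 8 groups of all 24 libraries, which were fitted together. That spread may be technical, and it is not that of the 6 compared libraries alone.

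CD8 marks cytotoxic T lymphocytes, which kill target cells with granzymes, perforin and Fas ligand and secrete interferon gamma. In mice without the α chain, T cells with a γδ receptor can carry CD8 instead. The α chain of CD8 is also found on the mouse spleen's type 1 conventional dendritic cells (cDC1), which cross-present antigen, so a sort on CD45 and CD8 alone can take in both. T cells that settle in tissue switch off the receptor CCR7, which leads them back to lymph nodes, and switch on retention genes such as Cd69, Cxcr6 and Itga1.

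Tumor libraries held 22718355 to 24310530 counts and spleen libraries 20747288 to 22805151. Mitochondrially encoded genes took 1.21% to 1.35% of counts in tumor libraries and 1.46% to 1.52% in spleen libraries. The targeted gene Trac (chr14:54220521-54224206, plus strand, GRCm38), which encodes the constant part of the α chain, had 23.5, 18.2 and 20.3 CPM in tumor libraries, against 9.29, 11.1 and 10.6 CPM in spleen libraries. Which part of Trac was deleted is not stated in the labels, and its level is therefore no check of the genotype. Cd8a had 992, 1004 and 771 CPM in tumor libraries, against 621, 584 and 589.9 CPM in spleen libraries. Cd4 had 13.1, 21.9 and 19.9 CPM in tumor libraries, against 8.93, 13.7 and 7.90 CPM in spleen libraries. In the sorted CD4 cells of the same arm Cd4 averaged 895 ± 283 CPM in tumor and 1176 ± 276 CPM in spleen (SD, n = 3 each). Levels are in CPM (counts scaled to the library), and are compared within a gene and not between genes.

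Of 20203 genes tested, 1614 (7.99%) were higher and 1392 (6.89%) lower in tumor than in spleen, 3006 (14.9%) in all (edgeR quasi-likelihood test, Benjamini-Hochberg adjusted p below 0.05, n = 3 against 3). The median log2 fold change over all tested genes was 0.03, and 1956 of the called genes differed at least 2-fold. In 2987 of the called genes the 3 tumor values lay wholly above or wholly below the 3 spleen values, and 47.8% of all tested genes had groups apart in this way. These shares over all genes are the background for the list counts below, and a count near them is no result about its list. By CPM the largest gains in tumor were B2m, H2-K1, Gzmb, Ms4a4b, Laptm5, Shisa5, AW112010, Lyz2, Cxcr6 and Ly6a. The largest losses were Cd74, H2-Ab1, Cst3, Psap, Igkc, H2-Aa, Ighm, H2-Eb1, Ppt1 and Naaa. The first group mixes class I and T cell effector genes with the macrophage lysozyme gene Lyz2, and the second holds immunoglobulin, class II and cDC1 genes. Without tumor replicate 1, 1903 genes passed. H2-K1 missed the threshold when tumor replicate 1 or 3 or spleen replicate 1, 2 or 3 was left out (adjusted p 0.0643 to 0.164). With marker scores of conventional dendritic cells, B cells and macrophages as covariates no gene passed in edgeR, 355 had an unadjusted p below 0.05, and the median standard error of the log2 fold change was 1.26 in place of 0.29.

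**Figure D1:**
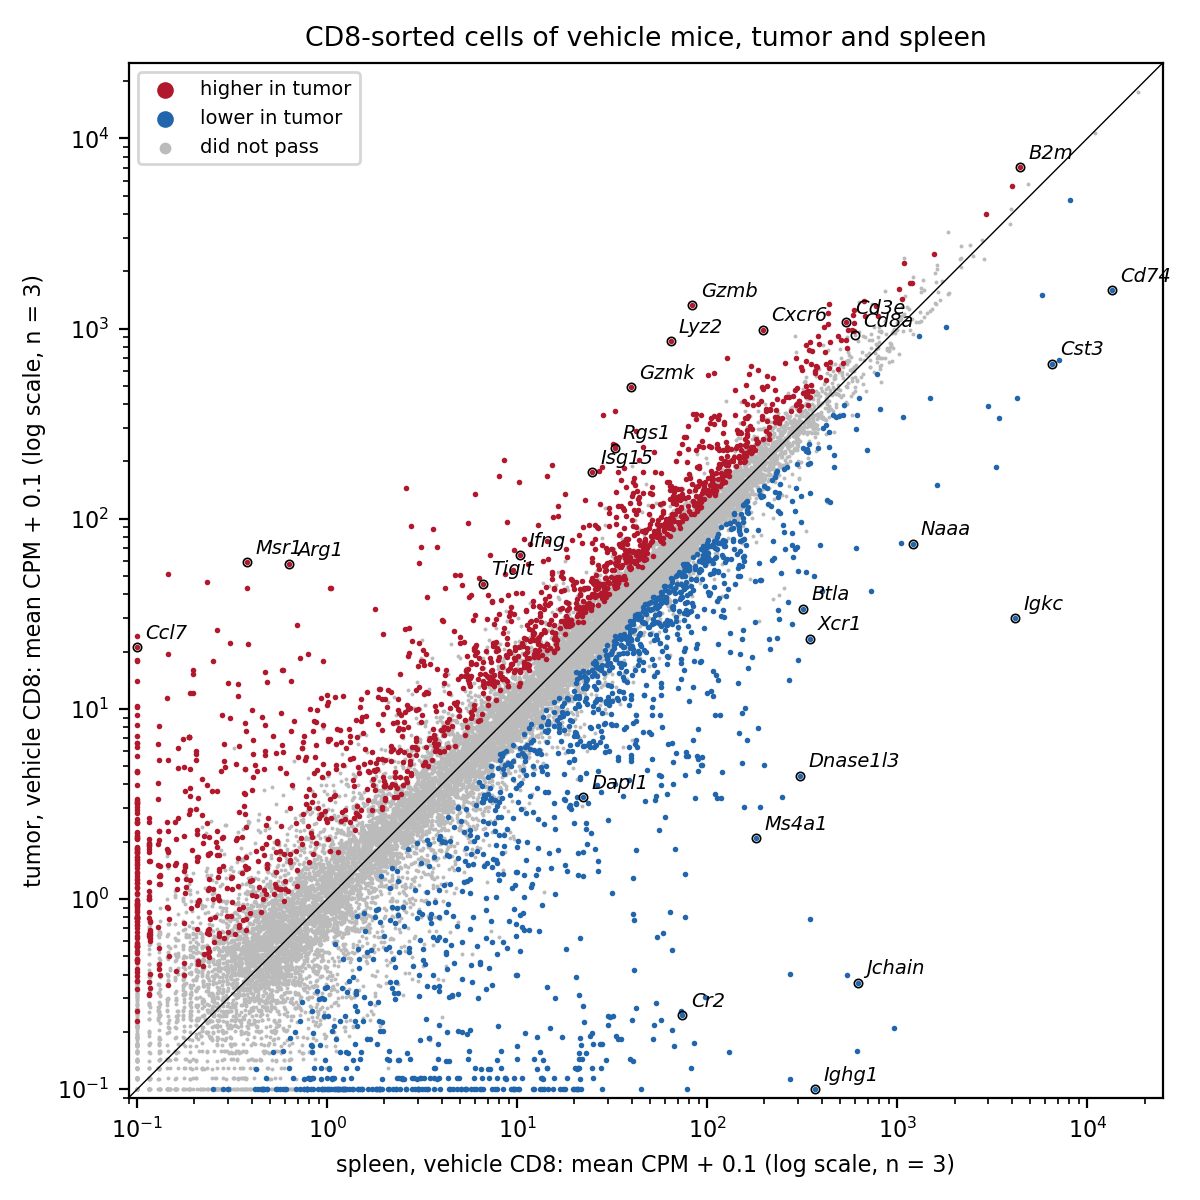
Mean CPM plus 0.1 of each tested gene in the tumor libraries (vertical axis, log scale) against the spleen libraries (horizontal axis, log scale), n = 3 each. Of 20203 genes, 1614 are red (higher in tumor) and 1392 blue (lower in tumor); named genes include Gzmb and Cxcr6 above the diagonal and Xcr1, Cd74 and Jchain below it.

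Genes of other cell types took most of the places among the largest folds. Of 16 cDC1 markers, 15 were lower and none higher in tumor, with a median log2 fold change of -3.36. Their summed level was 674 to 1262 CPM in tumor libraries and 5525 to 6213 CPM in spleen libraries. Xcr1 (chr9:123852315-123862029, minus strand), the chemokine receptor that defines cDC1, had 13.6, 28.6 and 27.7 CPM in tumor libraries, against 347, 364 and 327 CPM in spleen libraries (log2 fold change -3.89 ± 0.62, adjusted p = 0.000357). Every spleen library was high and every tumor library low, and no tumor library was at 0. Wdfy4, needed for cross-presentation, had 23.9, 58.8 and 42.1 CPM in tumor libraries, against 732, 744 and 718 CPM in spleen libraries (log2 fold change -4.14 ± 0.59, adjusted p = 0.000172). Naaa, an acid amidase of lysosomes, had 52.5, 101 and 68.0 CPM in tumor libraries, against 1195, 1304 and 1109.6 CPM in spleen libraries (log2 fold change -4.03 ± 0.63, adjusted p = 0.000330). Itgae, the integrin chain CD103 shared by cDC1 and resident T cells, had 41.0, 153 and 63.2 CPM in tumor libraries, against 309.9, 400.0 and 278 CPM in spleen libraries and was the cDC1 marker that did not pass (log2 fold change -1.94 ± 1.10, adjusted p = 0.269). Apol7c and Dnase1l3, dendritic cell genes that are not on the list, were among the 15 largest falls, at -6.00 ± 0.44 and -6.14 ± 0.56 log2.

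The MHC class II list, whose products present antigen to CD4 T cells, moved with the cDC1 genes. Of 13 genes 12 were lower in tumor, with a median log2 fold change of -3.08. The sum was 2576 to 4796 CPM in tumor libraries and 29491 to 32472 CPM in spleen libraries. H2-Ab1, a class II β chain, had 466, 895 and 681 CPM in tumor libraries, against 6902, 7481 and 6874 CPM in spleen libraries (log2 fold change -3.38 ± 0.53, adjusted p = 0.000333). Ciita, the master activator of class II transcription, had 18.1, 33.3 and 32.4 CPM in tumor libraries, against 264, 290.5 and 283 CPM in spleen libraries (log2 fold change -3.32 ± 0.44, adjusted p = 9.17e-05). The invariant chain gene Cd74 had 1072, 2067 and 1648 CPM in tumor libraries, against 13229, 14294 and 13078 CPM in spleen libraries (log2 fold change -3.08 ± 0.46, adjusted p = 0.000235). The groups did not overlap for any of the 3 genes, as in 47.8% of all genes tested, and tumor replicate 1 was the lowest library each time. Ctss, a protease of the class II pathway also used by macrophages, did not pass at 306, 454 and 404 CPM in tumor libraries, against 460.2, 509 and 454 CPM in spleen libraries (adjusted p = 0.534). Markers of other dendritic cells did not follow: of 12 cDC2 markers 2 were higher and 1 lower, of 12 plasmacytoid markers 2 were higher and none lower, and of 11 migratory dendritic cell markers none passed in edgeR, where 3 had an unadjusted p below 0.05, against 2 called in DESeq2 and 8 in limma voom. Over all genes tested in edgeR 7.99% were higher and 6.89% lower. An unadjusted p below 0.05 held there for 5661 of the 20203 genes, while DESeq2 called 3638 and limma voom 7121.

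B cell and plasma cell genes were also lower in tumor. Of 15 B cell markers 14 fell, with a median log2 fold change of -5.34 and a sum of 185 to 295 CPM in tumor libraries and 3330.3 to 6378 CPM in spleen libraries. Ms4a1, which encodes CD20, had 2.45, 1.83 and 1.66 CPM in tumor libraries, against 195, 154 and 194 CPM in spleen libraries (log2 fold change -6.51 ± 0.94, adjusted p = 0.000184). Cr2, the complement receptor of B cells, had 0.312, 0.122 and 0 CPM in tumor libraries, against 66.2, 62.5 and 92.8 CPM in spleen libraries (log2 fold change -8.95 ± 1.22, adjusted p = 0.000122). Of 13 plasma cell markers 9 were lower and 1 higher, and the higher one was Prdm1, which effector T cells also use. Prdm1 missed the threshold when spleen replicate 1 was left out (adjusted p = 0.0527). Jchain, which joins IgA and IgM subunits, had 0.491, 0.0813 and 0.218 CPM in tumor libraries, against 366, 828 and 669 CPM in spleen libraries (log2 fold change -11.20 ± 1.65, adjusted p = 0.000219). Ighg1 had no count in any tumor library and 528, 530.4 and 53.4 CPM in spleen libraries, so it was at least 2875-fold lower in tumor against a floor of 3 counts per library. The median of the plasma cell list was -7.38 as fitted and -3.34 with genes at 0 in a group set to that bound. The constant regions of immunoglobulins are similar in sequence, and their reads may be split between genes. Mpo, a granule gene of myeloid precursors, and P3h2 and Iglc1 complete the 15 largest falls with Ighg2b, Igha, Ighg2c, Ighg3, Igkc and Cd79a.

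Macrophage genes went the other way. Of 20 macrophage markers 15 were higher and 1 lower in tumor (the lower one was Spic, a factor of red pulp macrophages in the spleen), and the median log2 fold change was 3.65. The sum was 1390.2 to 2110.2 CPM in tumor libraries and 289 to 378 CPM in spleen libraries. Msr1, a scavenger receptor, had 39.0, 77.0 and 61.3 CPM in tumor libraries, against 0.402, 0 and 0.436 CPM in spleen libraries (log2 fold change 7.72 ± 0.83, adjusted p = 1.99e-05). Arg1, which breaks down arginine, had 37.2, 91.7 and 43.5 CPM in tumor libraries, against 1.12, 0.132 and 0.339 CPM in spleen libraries (log2 fold change 6.74 ± 0.87, adjusted p = 7.94e-05). C1qa, a complement subunit made by tissue macrophages, had 100.4, 160.0 and 143 CPM in tumor libraries, against 3.97, 5.32 and 8.34 CPM in spleen libraries (log2 fold change 4.52 ± 0.56, adjusted p = 6.16e-05). In all 3 genes tumor replicate 2 was the highest library and the spleen libraries were near 0 or in single digits. Ccl12, a ligand of the monocyte receptor CCR2, had 14.8, 27.4 and 30.2 CPM in tumor libraries and no count in spleen, so it was at least 176-fold higher against 3 counts per library. Ccl7, another ligand of CCR2, had 16.8, 28.6 and 17.4 CPM in tumor libraries and no count in spleen, and was at least 153-fold higher. The 15 largest rises were Ccl12, Ccl7, Fcrls, Stab1, Msr1, C3ar1, Mmp12, Arg1, Gas6, Krt83, Fn1, Pf4, Ms4a7, C5ar1 and F13a1, and most of these are genes of macrophages and monocytes. Mmp12 missed the threshold when spleen replicate 2 or 3 was left out (adjusted p 0.0522 to 0.0539) and Spic when tumor replicate 1, 2 or 3 or spleen replicate 3 was left out (0.0950 to 0.172).

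Traces of pancreas and stroma were present at low levels. Of 16 acinar cell genes tested 12 were higher in tumor, their sum being 21.1 to 62.3 CPM in tumor libraries and 3.39 to 6.42 CPM in spleen libraries, and of 14 fibroblast genes 9 were higher, with 255 to 425 CPM in tumor libraries and 62.9 to 80.3 CPM in spleen libraries. Of 14 ductal and epithelial genes 6 were higher and 2 lower, with 230.5 to 312 CPM in tumor libraries and 174 to 204 CPM in spleen libraries. Krt8, a keratin of simple epithelia, had 14.9, 16.3 and 16.3 CPM in tumor libraries, against 1.21, 0.176 and 0.0485 CPM in spleen libraries (log2 fold change 5.02 ± 0.97, adjusted p = 0.00174). Krt19, a keratin of pancreatic ducts, had 1.69, 4.80 and 5.19 CPM in tumor libraries and no count in spleen, and was at least 28.4-fold higher. In the spleen libraries 7 acinar, 6 fibroblast and 3 ductal markers were at 0. With such genes at their bound the median log2 fold change was 3.54 for acinar, 3.84 for fibroblast and 2.04 for ductal genes, against 6.43, 4.79 and 2.31 as fitted. The part that cells of these types, or their RNA, had in any result below was not tested, and in bulk RNA fewer cells of a type and less RNA per cell cannot be told apart.

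**Figure D2:**
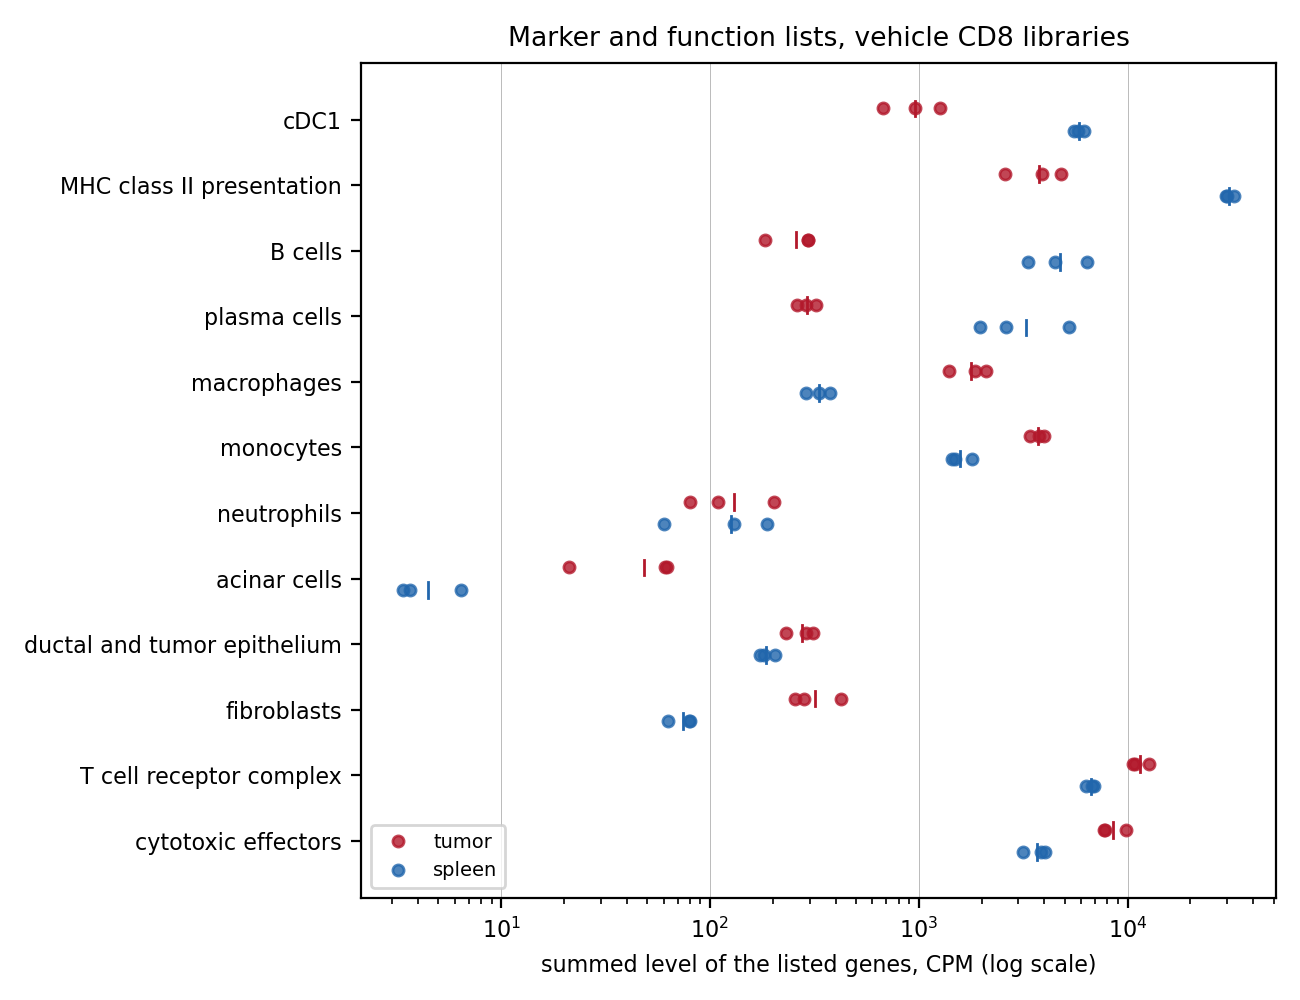
Summed CPM of each list (horizontal axis, log scale) in the 3 tumor libraries (red, upper row of each pair) and the 3 spleen libraries (blue, lower row); points are libraries and vertical ticks are means. The cDC1, class II, B cell and plasma cell sums are lower in every tumor library than in any spleen library, and the macrophage, monocyte, acinar and fibroblast sums are higher.

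Genes of the T cell receptor complex were higher in tumor or did not pass. Of 20 genes 7 were higher in tumor and none lower, with a median log2 fold change of 0.85. Cd3e, a signaling chain of every T cell receptor, had 1162, 1050.4 and 1015 CPM in tumor libraries, against 547, 513 and 559 CPM in spleen libraries (log2 fold change 0.99 ± 0.18, adjusted p = 0.00107). Cd3g, another chain of the complex, had 844, 777 and 831 CPM in tumor libraries, against 343, 308 and 339 CPM in spleen libraries (log2 fold change 1.31 ± 0.19, adjusted p = 0.000177). For both, each tumor library was above every spleen library. Trdc, the constant gene of the δ chain, had 1666, 1168 and 1295 CPM in tumor libraries, against 625, 567 and 697 CPM in spleen libraries and did not pass (log2 fold change 1.13 ± 0.96, adjusted p = 0.486). Its groups did not overlap, as was so for 47.8% of all genes tested. Of 14 γδ T cell markers Trdv4 and Maf were higher and none lower, and their sum was 3361 to 3753 CPM in tumor libraries and 1552 to 1722 CPM in spleen libraries. Trdv4, a variable gene of the δ chain, had 4.91, 17.6 and 36.1 CPM in tumor libraries, against 1.07, 2.90 and 3.83 CPM in spleen libraries (log2 fold change 2.91 ± 0.95, adjusted p = 0.0484). Trdv4 missed the threshold when tumor replicate 2 or 3 or spleen replicate 1, 2 or 3 was left out (adjusted p 0.0876 to 0.200). Trbc2, a constant gene of the β chain, had 594, 548 and 532 CPM in tumor libraries, against 358, 309.8 and 328 CPM in spleen libraries (adjusted p = 0.0860). Cd8a did not pass at 0.62 ± 0.45 log2 (adjusted p = 0.399), nor did Cd8b1, the β chain of CD8, at 0.47 ± 0.56 (adjusted p = 0.641).

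The sum of Cd3d, Cd3e, Cd3g and Cd247 was 2588 to 2952 CPM in tumor libraries and 1299 to 1463 CPM in spleen libraries. When the libraries were scaled to that sum instead of by TMM, the median log2 fold change over all genes became -0.94, a shift of -0.97, and 526 genes were higher and 12071 lower. Counts on both scales are given below, and most lists move with this shift. On the CD3 scale the background for each list count is 526 higher and 12071 lower of 20203 genes tested. Of the 9-gene CD8 lineage list 2 were higher on the TMM scale, Runx3, a factor that silences CD4 in CD8 T cells, at 0.73 ± 0.24 log2 and Cxcr3, a receptor for interferon-induced chemokines, at 0.72 ± 0.21. On that scale 7.99% of all genes tested were higher. Per CD3 count both had the opposite sign, at -0.24 and -0.26. Cxcr3 missed the threshold when any of the 6 libraries was left out (adjusted p 0.0552 to 0.0988) and Runx3 when any of the 6 libraries was left out (0.0571 to 0.203).

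Killing genes were led by granzyme B. Of 19 cytotoxic effector genes 7 were higher and none lower in tumor, and 4 were higher and 4 lower per CD3 count. Gzmb (chr14:56258838-56262260, minus strand), a granule protease that triggers apoptosis, had 1654, 1254 and 1065 CPM in tumor libraries, against 50.9, 91.4 and 108 CPM in spleen libraries (log2 fold change 3.99 ± 0.70, adjusted p = 0.000829). The lowest tumor library was far above the highest spleen library, and per CD3 count Gzmb was still higher (log2 fold change 2.99, adjusted p = 0.000991). Fasl, the ligand that triggers the death receptor Fas, had 193, 116 and 168 CPM in tumor libraries, against 23.5, 33.5 and 47.8 CPM in spleen libraries (log2 fold change 2.19 ± 0.45, adjusted p = 0.00277). Gzmk, a granzyme of memory-like CD8 T cells, had 681, 333 and 457 CPM in tumor libraries, against 20.9, 11.9 and 85.4 CPM in spleen libraries (log2 fold change 3.64 ± 1.04, adjusted p = 0.0227), with a wide spread among spleen libraries. Ctsw, a cysteine protease of killer cells, rose by 1.00 ± 0.21 log2 and Tnfsf10, the death ligand TRAIL, by 1.44 ± 0.34. Gzmk missed the threshold when tumor replicate 1 or spleen replicate 1 or 2 was left out (adjusted p 0.0683 to 0.103).

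Other granule genes did not pass. Prf1, which encodes the pore protein perforin, had 422, 219 and 269 CPM in tumor libraries, against 162, 133 and 192 CPM in spleen libraries (log2 fold change 0.90 ± 0.71, adjusted p = 0.449), with no overlap between groups, as in 47.8% of all genes tested. Gzma, granzyme A, had 1290.5, 714 and 726 CPM in tumor libraries, against 105, 377 and 392 CPM in spleen libraries (adjusted p = 0.0959), and spleen replicate 1 stood well below the others. Nkg7, a granule membrane protein, had 2701, 2075 and 2231 CPM in tumor libraries, against 991, 1044 and 1205 CPM in spleen libraries (adjusted p = 0.0871). Of 18 cytokine and chemokine genes tested, Ifng, Lta and Tnf were higher and none lower. Ifng, the main macrophage-activating cytokine of T cells, had 83.0, 63.1 and 46.8 CPM in tumor libraries, against 6.03, 14.1 and 10.8 CPM in spleen libraries (log2 fold change 2.64 ± 0.67, adjusted p = 0.0114). Lta, lymphotoxin α, rose by 1.39 ± 0.34 log2 (adjusted p = 0.00967). Tnf rose by 1.32 ± 0.44 log2 (adjusted p = 0.0483) and Ccl5, a chemokine of memory and effector T cells, did not pass at 0.80 ± 0.58. Ifng missed the threshold when spleen replicate 1 was left out (adjusted p = 0.0653), Lta when spleen replicate 2 was left out (= 0.0531) and Tnf when any of the 6 libraries was left out (0.0505 to 0.175).

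Retention genes were higher and some homing genes lower in tumor. Of 16 tissue residency genes 10 were higher and 1 (Rgs2) lower in tumor, with a median log2 fold change of 1.11; 5 were higher and 4 lower per CD3 count. Cxcr6 (chr9:123806475-123811760, plus strand), a chemokine receptor of resident T cells, had 885, 1099 and 970.1 CPM in tumor libraries, against 172, 230.3 and 185 CPM in spleen libraries (log2 fold change 2.33 ± 0.47, adjusted p = 0.00242). Rgs1, which dampens migration toward chemokines, had 272, 235 and 202 CPM in tumor libraries, against 26.5, 37.3 and 33.4 CPM in spleen libraries (log2 fold change 2.87 ± 0.37, adjusted p = 7.42e-05). Cd69, which blocks exit from tissue, had 346, 309 and 305 CPM in tumor libraries, against 109, 106 and 96.6 CPM in spleen libraries (log2 fold change 1.62 ± 0.23, adjusted p = 0.000177). Tumor and spleen libraries were apart in all 3 genes, as in 47.8% of all genes tested. Per CD3 count the log2 fold changes of these 3 were 1.35, 1.87 and 0.64. Dusp6, a phosphatase that limits ERK signaling, had 136, 148 and 128 CPM in tumor libraries, against 49.5, 48.9 and 38.4 CPM in spleen libraries (log2 fold change 1.59 ± 0.12, adjusted p = 7.12e-07). Bhlhe40, a factor that keeps resident cells metabolically fit, rose by 1.92 ± 0.39 log2 and Itga1, the collagen-binding integrin CD49a, by 2.03 ± 0.52. Rgs2, another regulator of chemokine signaling, fell by 0.94 ± 0.31 log2. Itga1 missed the threshold when spleen replicate 1 or 3 was left out (adjusted p 0.0654 to 0.0723) and Rgs2 when any of the 6 libraries was left out (0.0844 to 0.120).

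Of 19 genes of naive and recirculating cells 3 were lower and 1 higher, with a median log2 fold change of -0.66. Dapl1, a marker of naive and memory-like T cells, had 1.20, 3.37 and 5.45 CPM in tumor libraries, against 30.8, 15.6 and 19.6 CPM in spleen libraries (log2 fold change -2.71 ± 0.50, adjusted p = 0.00148). Bach2, a repressor that holds T cells in a quiescent state, fell by 1.46 ± 0.36 log2. The gene that rose was Slfn1, at 1.33 ± 0.26, a regulator of T cell quiescence that interferon also induces. Ccr7 had 59.8, 131 and 174 CPM in tumor libraries, against 503, 394 and 386 CPM in spleen libraries and missed the threshold (adjusted p = 0.0535). Tcf7, the factor of stem-like T cells, had 523, 495 and 548 CPM in tumor libraries, against 946, 774 and 754 CPM in spleen libraries (adjusted p = 0.201). B cells and dendritic cells also carry Ccr7, and the part of their lower sums in its values was not tested. Per CD3 count 16 of the 19 were lower and none higher, where 12071 of all 20203 genes tested were lower and 526 higher. Bach2 missed the threshold when tumor replicate 1 was left out (adjusted p = 0.0512).

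**Figure D3:**
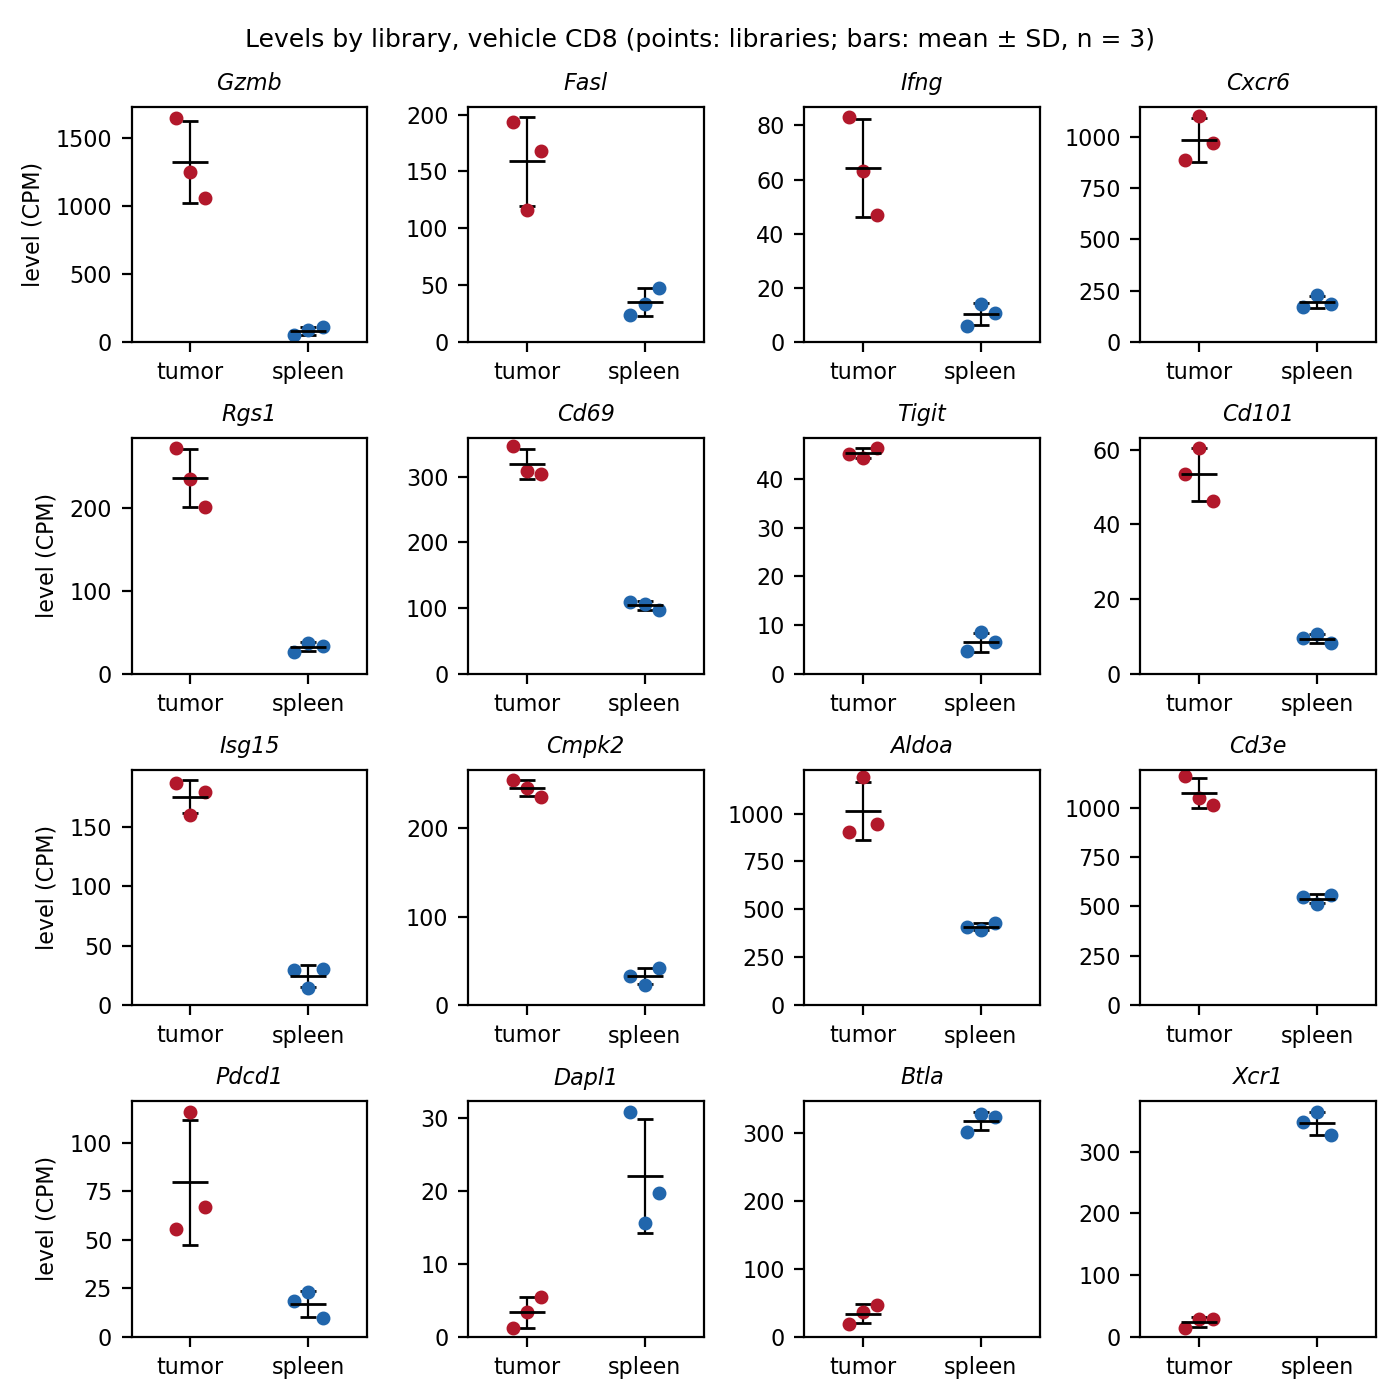
CPM (vertical axes, each from 0) of 16 genes in the 3 tumor libraries (red) and the 3 spleen libraries (blue) of vehicle CD8 cells, with mean and SD. In every panel the tumor and spleen points do not overlap. Of all genes tested 47.8% had groups apart in this way, as had 2987 of the 3006 that passed. All genes shown but Pdcd1 had passed, so the lack of overlap adds nothing to the test. Dapl1, Btla and Xcr1 are lower in tumor and the other 13 are higher in mean, Pdcd1 without passing the test.

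Receptors that restrain T cells split. Of 18 inhibitory receptor and exhaustion genes Tigit, Ctla4, Cd101 and Lilrb4a were higher and Btla lower in tumor; 4 were higher and 6 lower per CD3 count. Tigit, an inhibitory receptor for CD155, had 45.3, 44.4 and 46.4 CPM in tumor libraries, against 4.55, 8.49 and 6.40 CPM in spleen libraries (log2 fold change 2.81 ± 0.48, adjusted p = 0.000632). Cd101, a marker of late dysfunctional CD8 T cells, had 53.7, 60.4 and 46.2 CPM in tumor libraries, against 9.47, 10.6 and 8.09 CPM in spleen libraries (log2 fold change 2.50 ± 0.34, adjusted p = 0.000122). Ctla4, which competes with CD28 for its ligands, had 7.05, 20.5 and 9.86 CPM in tumor libraries, against 1.92, 3.78 and 0.291 CPM in spleen libraries (log2 fold change 2.63 ± 0.73, adjusted p = 0.0200). Lilrb4a, also found on macrophages and dendritic cells, had 91.9, 95.1 and 89.1 CPM in tumor libraries, against 10.1, 15.4 and 12.7 CPM in spleen libraries (log2 fold change 2.85 ± 0.31, adjusted p = 2.09e-05). Btla, found on B cells and cDC1 as well as on T cells, had 18.4, 35.9 and 46.4 CPM in tumor libraries, against 302, 328 and 323 CPM in spleen libraries (log2 fold change -3.24 ± 0.35, adjusted p = 1.99e-05). Pdcd1, which encodes PD-1, had 55.7, 116 and 67.0 CPM in tumor libraries, against 18.2, 22.9 and 9.45 CPM in spleen libraries and missed the threshold (log2 fold change 2.24 ± 0.78, adjusted p = 0.0613), while Lag3 and Tox, the exhaustion factor, were at 0.44 ± 0.78 and 0.67 ± 0.55 log2 (adjusted p = 0.769 and 0.466). Ctla4 missed the threshold when tumor replicate 2 or spleen replicate 1 or 3 was left out (adjusted p 0.0766 to 0.105). Of 12 regulatory T cell markers 5 were higher and none lower in tumor. Their sum was 271 to 461 CPM in tumor libraries and 140 to 165 CPM in spleen libraries. The part of such cells in the rises above was not tested.

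Of 19 effector differentiation factors 7 were higher and 3 lower, and 2 were higher and 6 lower per CD3 count. Maf, a factor of IL-10 and IL-17 producing T cells, had 15.6, 39.0 and 22.3 CPM in tumor libraries, against 3.80, 6.90 and 2.91 CPM in spleen libraries (log2 fold change 2.49 ± 0.55, adjusted p = 0.00413). Rora, a factor of type 17 and innate-like lymphocytes, had 115, 129 and 105 CPM in tumor libraries, against 20.3, 57.2 and 24.5 CPM in spleen libraries (log2 fold change 1.78 ± 0.39, adjusted p = 0.00398). Hopx, found in differentiated effectors, rose by 1.01 ± 0.18 log2 and Gata3 by 0.87 ± 0.20. The lower genes were Batf3, Irf8 and Bcl6, at -3.40, -1.79 and -1.85, and of these Batf3 and Irf8 also direct cDC1 development and Bcl6 the germinal center B cell. Tbx21 (T-bet) and Eomes, which drive killer programs, did not pass at 0.56 ± 0.21 and 0.67 ± 0.82 log2. Among 18 Klr receptor genes, shared by NK cells and activated CD8 T cells, Klrc1, Klrc2, Klre1 and Klrk1 were higher, at 1.92, 1.56, 2.11 and 1.36, and none per CD3 count. Of 12 NK cell markers 2 were higher and none lower. Their sum was 1460 to 2650 CPM in tumor libraries and 579 to 1031 CPM in spleen libraries. The part of NK cells in the Klr and granzyme values was not tested. Il12rb1, the IL-12 receptor subunit shared with the IL-23 receptor, had 120.0, 119.9 and 99.5 CPM in tumor libraries, against 28.6, 29.0 and 33.5 CPM in spleen libraries (log2 fold change 1.90 ± 0.27, adjusted p = 0.000183), and 2 inhibitors of cytokine signaling rose as well, Socs1 by 1.56 ± 0.21 and Cish by 2.96 ± 0.39 log2. Klrc1 missed the threshold when tumor replicate 1 or 3 or spleen replicate 1 or 2 was left out (adjusted p 0.0638 to 0.116), Klrc2 when tumor replicate 1 or 3 or spleen replicate 1 or 2 was left out (0.0615 to 0.106), Klre1 when tumor replicate 1 or 3 or spleen replicate 1, 2 or 3 was left out (0.0585 to 0.161), Klrk1 when tumor replicate 1 or 3 or spleen replicate 1, 2 or 3 was left out (0.0752 to 0.160) and Irf8 when any of the 6 libraries was left out (0.05002 to 0.139).

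**Figure D4:**
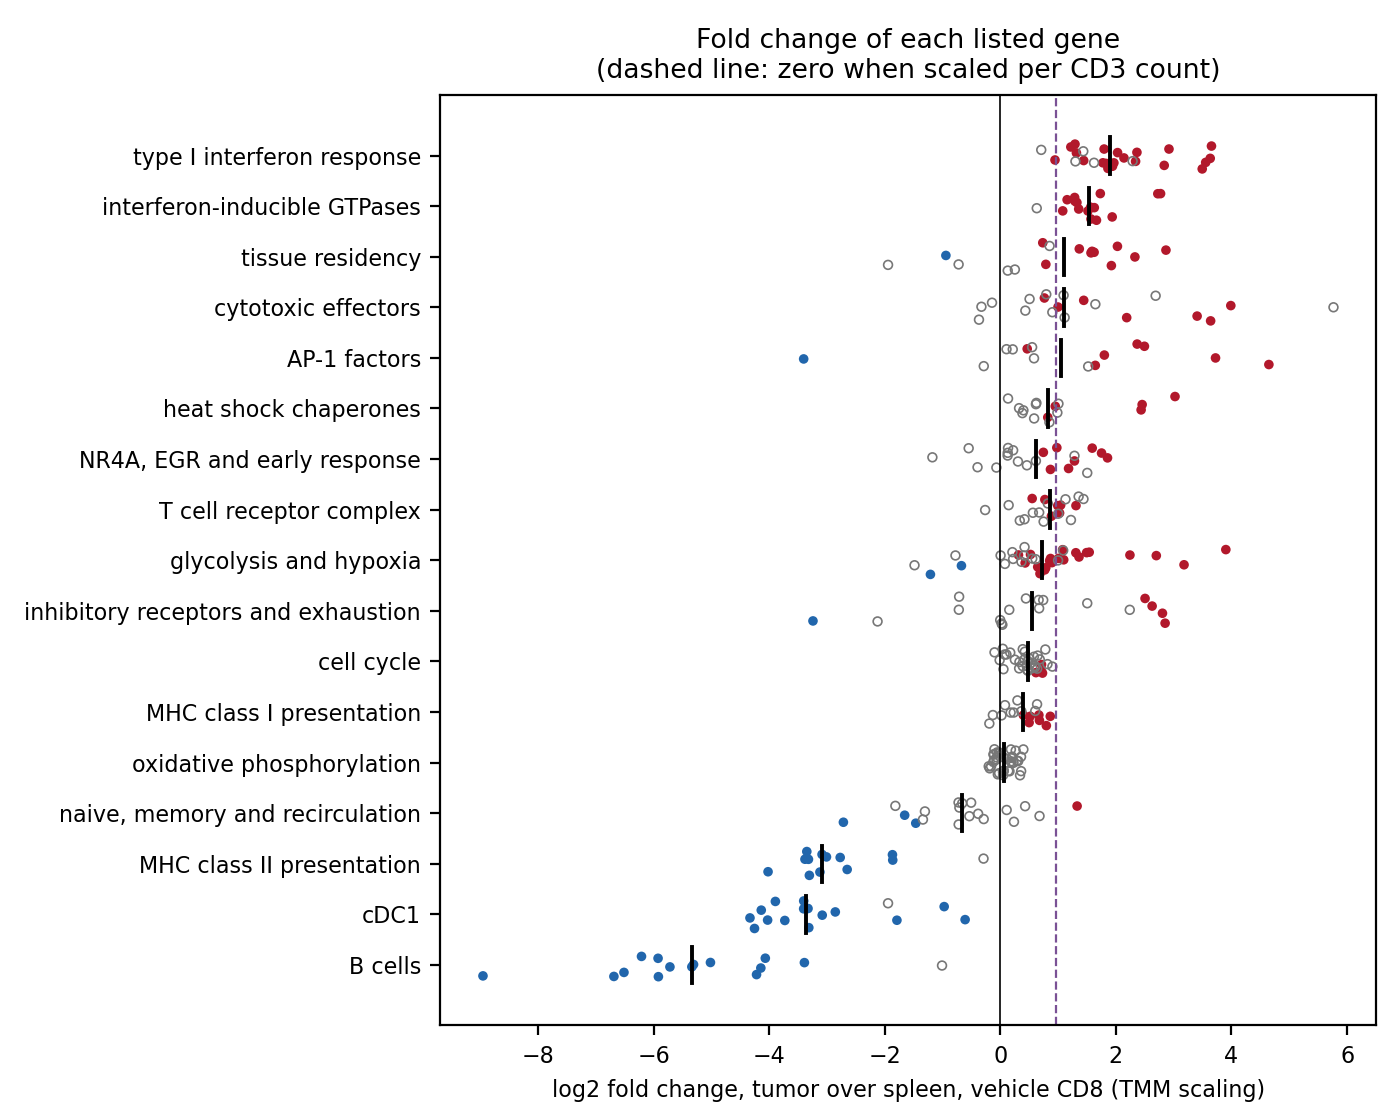
Log2 fold change, tumor over spleen, of each gene of 17 lists; filled points passed (red higher, blue lower), open points did not, black ticks are list medians and the dashed line marks zero when libraries are scaled per CD3 count. The interferon lists lie almost wholly right of the dashed line (medians 1.90 and 1.54), oxidative phosphorylation sits at 0.06, and class II, cDC1 and B cell genes lie left.

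Most interferon-response genes rose. Of 26 type I interferon response genes 21 were higher and none lower in tumor, and the median log2 fold change was 1.90. All 26 had groups apart, against 47.8% of all genes tested. Per CD3 count 12 were higher and none lower. Isg15, a ubiquitin-like modifier, had 187, 159.8 and 179 CPM in tumor libraries, against 29.6, 14.0 and 30.0 CPM in spleen libraries (log2 fold change 2.84 ± 0.46, adjusted p = 0.000396). Cmpk2, a mitochondrial nucleotide kinase, had 254, 245 and 236 CPM in tumor libraries, against 32.7, 23.1 and 41.4 CPM in spleen libraries (log2 fold change 2.92 ± 0.42, adjusted p = 0.000192). Zbp1, a sensor of left-handed nucleic acid that can start necroptosis, had 402, 339 and 327 CPM in tumor libraries, against 93.3, 71.2 and 97.2 CPM in spleen libraries (log2 fold change 2.03 ± 0.26, adjusted p = 6.61e-05). Stat2, a transcription factor of the type I interferon response, missed the threshold at 0.71 ± 0.26 log2 (adjusted p = 0.0705). The macrophage sum was also higher in tumor, and its part in these rises was not tested.

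As a description outside the RNA data, the 250 bases before the RefSeq start (GRCm38.p6) were searched for the interferon-stimulated response element. It was written as GAAA, any 2 bases and GAAA again, on both strands, overlapping copies counted. It was found in 10 of the 19 list members with a RefSeq window, 9 of them among the 16 that were higher, and in 3.46% of all 27025 genes with a window. The windows of 3 list genes are shown 5′ to 3′ in the direction of the gene, with the matches (or their complement, with TTTC on each side) in capitals: Isg15 (chr4:156200819-156201068, minus strand), with 3 overlapping copies, Ifit1 (chr19:34640639-34640888, plus strand), with 2, and Rsad2 (chr12:26456453-26456702, minus strand), with 1. Ifit1 and Rsad2 were picked after their values were seen.
Isg15: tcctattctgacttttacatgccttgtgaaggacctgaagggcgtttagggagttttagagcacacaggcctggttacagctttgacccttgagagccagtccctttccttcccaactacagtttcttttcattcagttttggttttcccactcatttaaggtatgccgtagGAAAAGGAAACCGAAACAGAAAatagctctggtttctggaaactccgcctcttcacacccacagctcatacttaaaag
Ifit1: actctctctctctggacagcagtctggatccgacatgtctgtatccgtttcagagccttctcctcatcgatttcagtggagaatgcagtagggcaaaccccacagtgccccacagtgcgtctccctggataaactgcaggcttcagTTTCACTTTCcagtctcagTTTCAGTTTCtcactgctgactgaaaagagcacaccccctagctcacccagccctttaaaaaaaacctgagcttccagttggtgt
Rsad2: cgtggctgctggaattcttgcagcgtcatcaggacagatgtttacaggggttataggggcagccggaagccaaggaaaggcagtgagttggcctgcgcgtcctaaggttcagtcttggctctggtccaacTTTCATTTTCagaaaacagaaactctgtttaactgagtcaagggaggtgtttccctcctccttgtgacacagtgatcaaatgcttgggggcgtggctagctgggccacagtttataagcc
Ifit1, an RNA-binding inhibitor of viral translation, had 397, 316 and 334 CPM in tumor libraries, against 33.8, 14.3 and 36.4 CPM in spleen libraries (log2 fold change 3.63 ± 0.61, adjusted p = 0.000585). Rsad2, the antiviral enzyme viperin, had 189.5, 159 and 154 CPM in tumor libraries, against 14.3, 6.42 and 22.1 CPM in spleen libraries (log2 fold change 3.55 ± 0.74, adjusted p = 0.00277). A match describes letters in the window and not a site in use. The list was chosen as interferon-response genes, so its share of matches is no support for the rises in tumor.

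Of 16 interferon-inducible GTPase genes, which act against intracellular pathogens and follow interferon gamma as well, 15 were higher and none lower, with a median log2 fold change of 1.54; 5 were higher per CD3 count. Gbp10 had 198, 176 and 158 CPM in tumor libraries, against 31.1, 20.4 and 28.8 CPM in spleen libraries (log2 fold change 2.73 ± 0.32, adjusted p = 4.02e-05). Gbp6 rose by 2.77 ± 0.34 log2. Igtp had 540.4, 505 and 466 CPM in tumor libraries, against 188, 141 and 148 CPM in spleen libraries (log2 fold change 1.66 ± 0.20, adjusted p = 4.95e-05). The one that missed the threshold was Gbp5, at 0.63 ± 0.27 (adjusted p = 0.128). The interferon gamma activated site written as TTCNNNGAA, read on both strands, was in 6 of 10 members with a window and in 8.13% of all genes with one. The Igtp window (chr11:58199306-58199555, plus strand) is shown with its match to this site in capitals. Its lower-case letters also hold gaaactgaaa, a match to the interferon-stimulated response element above, which was not counted for this list.
Igtp: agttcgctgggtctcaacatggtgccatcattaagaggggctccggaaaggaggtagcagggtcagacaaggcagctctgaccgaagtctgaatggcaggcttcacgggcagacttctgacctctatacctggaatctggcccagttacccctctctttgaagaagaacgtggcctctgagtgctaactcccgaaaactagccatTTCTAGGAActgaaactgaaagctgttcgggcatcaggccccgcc
Of 17 MHC class I genes 7 were higher and none lower, among them B2m, the light chain of class I molecules, with 7333, 6842 and 7069 CPM in tumor libraries, against 4573, 4254 and 4461 CPM in spleen libraries (log2 fold change 0.68 ± 0.13, adjusted p = 0.00209). Nlrc5, the activator of class I genes, rose by 0.86 ± 0.24 log2 and H2-K1 by 0.50 ± 0.15, while H2-D1 did not pass at 0.23 ± 0.12. Per CD3 count no class I gene was higher and 10 were lower, where 12071 of all 20203 genes tested were lower and 526 higher. Ly6a, the interferon-induced surface protein Sca-1, had 1103, 1292 and 1219 CPM in tumor libraries, against 379.6, 462 and 454 CPM in spleen libraries (log2 fold change 1.48 ± 0.17, adjusted p = 2.82e-05), and AW112010, a transcript induced in activated lymphocytes and macrophages, had 1384, 1406 and 1254 CPM in tumor libraries, against 425, 471 and 422 CPM in spleen libraries (log2 fold change 1.62 ± 0.22, adjusted p = 0.000115). The Gbp and H2 genes have close copies, and reads may be split between them. Nlrc5 missed the threshold when tumor replicate 1 or 2 or spleen replicate 1 or 2 was left out (adjusted p 0.0502 to 0.0885) and H2-K1 when tumor replicate 1 or 3 or spleen replicate 1, 2 or 3 was left out (0.0643 to 0.164).

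Genes of recent stimulation and of stress were higher in part. Of 14 AP-1 genes 7 were higher and 1 (Batf3) lower, and of 21 NR4A, EGR and other early-response genes 8 were higher and none lower. Jun, a subunit of AP-1, had 699, 444 and 579.8 CPM in tumor libraries, against 170.1, 179 and 145 CPM in spleen libraries (log2 fold change 1.80 ± 0.33, adjusted p = 0.00114). Its partner Fos had 356, 187 and 169 CPM in tumor libraries, against 37.1, 59.5 and 41.1 CPM in spleen libraries (log2 fold change 2.37 ± 0.48, adjusted p = 0.00228). Dusp1, a phosphatase that shuts off stress kinases, had 168, 166 and 117 CPM in tumor libraries, against 32.3, 57.9 and 34.1 CPM in spleen libraries (log2 fold change 1.85 ± 0.33, adjusted p = 0.000998). Tnfaip3, the NF-κB brake A20, had 304, 241 and 197 CPM in tumor libraries, against 67.3, 83.3 and 69.6 CPM in spleen libraries (log2 fold change 1.75 ± 0.33, adjusted p = 0.00127). Egr1 rose by 1.28 ± 0.26 log2. Nr4a1, which follows T cell receptor signals, had 34.7, 35.5 and 35.4 CPM in tumor libraries, against 37.3, 28.7 and 30.5 CPM in spleen libraries and did not pass (adjusted p = 0.874). Per CD3 count 4 AP-1 genes were higher and 5 lower, and 2 early-response genes were higher and 9 lower. 

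Of 15 heat shock chaperone genes 5 were higher and none lower, and 1 was higher and 1 lower per CD3 count. Hspb1, a small heat shock protein, had 4.42, 7.68 and 4.36 CPM in tumor libraries, against 1.21, 0.176 and 0.630 CPM in spleen libraries (log2 fold change 3.02 ± 0.86, adjusted p = 0.0224). Hspa1a, the inducible HSP70, had 969.6, 336 and 449 CPM in tumor libraries, against 159, 37.4 and 128 CPM in spleen libraries (log2 fold change 2.44 ± 0.76, adjusted p = 0.0365), and tumor replicate 1 stood far above the other tumor libraries. Hspa1a has a near-identical neighbor, Hspa1b, and reads may be split between them. Bag3, a partner of HSP70, rose by 0.82 ± 0.20 log2, and Hspa8, the constitutive HSP70, did not pass at 0.32 ± 0.27. The heat shock element, written as GAA, TTC and GAA with any 2 bases between them and read on both strands, was in 2 of 12 members with a window and in 0.514% of all genes with one. The 2 members with a match were not among the 4 higher members with a window. Hspa1a missed the threshold when tumor replicate 1 or 3 or spleen replicate 1, 2 or 3 was left out (adjusted p 0.0533 to 0.163), Hspa1b when tumor replicate 1 or 3 or spleen replicate 1, 2 or 3 was left out (0.0534 to 0.174), Bag3 when spleen replicate 2 was left out (= 0.0583) and Hspb1 when tumor replicate 2 or spleen replicate 2 or 3 was left out (0.0772 to 0.102).

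Glycolysis and hypoxia genes were mostly higher on the TMM scale. Of 36 genes 21 were higher and 2 lower in tumor, with a median log2 fold change of 0.73, and 5 were higher and 10 lower per CD3 count, a scale on which 526 of all genes were higher and 12071 lower. Aldoa, the aldolase of glycolysis, had 906, 1189.6 and 945 CPM in tumor libraries, against 409, 391 and 429.8 CPM in spleen libraries (log2 fold change 1.31 ± 0.19, adjusted p = 0.000202). Slc16a3, the lactate exporter MCT4, had 39.2, 97.9 and 56.4 CPM in tumor libraries, against 4.02, 10.2 and 7.17 CPM in spleen libraries (log2 fold change 3.18 ± 0.48, adjusted p = 0.000263). Ankrd37, a target of hypoxia-inducible factors, had 6.96, 9.19 and 8.55 CPM in tumor libraries, against 1.79, 1.06 and 2.37 CPM in spleen libraries (log2 fold change 2.24 ± 0.29, adjusted p = 7.50e-05). Hilpda, which stores lipid under hypoxia, had 15.9, 24.2 and 20.4 CPM in tumor libraries, against 8.53, 8.22 and 6.79 CPM in spleen libraries (log2 fold change 1.36 ± 0.20, adjusted p = 0.000202). Tumor replicate 2 was highest for all 4 genes, as it was for the macrophage genes Msr1 and Arg1, and the part of macrophage RNA in these rises was not tested. Ldha, lactate dehydrogenase, had 1349, 1670.0 and 1402 CPM in tumor libraries, against 1129, 1059.5 and 1116 CPM in spleen libraries and did not pass (adjusted p = 0.123). The lower genes were Pdk1, which closes the entry of pyruvate into mitochondria, with 31.0, 39.8 and 36.7 CPM in tumor libraries, against 85.3, 83.1 and 80.4 CPM in spleen libraries (log2 fold change -1.21 ± 0.24, adjusted p = 0.00234). Pfkfb3, a driver of glycolytic flux, at -0.67 ± 0.18 log2. Both were named after their values were seen. Hif1a, the oxygen-regulated factor itself, rose by 1.04 ± 0.33 log2 (adjusted p = 0.0415). Hif1a missed the threshold when any of the 6 libraries was left out (adjusted p 0.0780 to 0.124) and Pfkfb3 when tumor replicate 1 or 3 or spleen replicate 2 was left out (0.0640 to 0.0918).

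The core of the hypoxia-response element, ACGTG, was in the 250 bases before the start of 19 of 32 list members with a window and in 18.5% of all genes with one. Among tested genes with a window the share was 24.1%. Of the 20 members with a window that were higher, 12 held it. A gene with several windows counted if any of them matched. Slc16a3 (chr11:120948817-120949066, plus strand) and Ankrd37 (chr8:45999851-46000100, minus strand), both higher in tumor, hold 2 copies each. Ldha (chr7:46845554-46845803, plus strand), which did not pass, holds 5 in the window shown, counting both strands of the palindrome CACGTG. Capitals mark ACGTG or its complement CACGT.
Slc16a3: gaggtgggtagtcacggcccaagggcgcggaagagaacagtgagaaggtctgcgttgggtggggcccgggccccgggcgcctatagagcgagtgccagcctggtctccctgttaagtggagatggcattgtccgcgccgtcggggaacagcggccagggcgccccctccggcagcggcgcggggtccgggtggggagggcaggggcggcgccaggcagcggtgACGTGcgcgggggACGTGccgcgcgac
Ankrd37: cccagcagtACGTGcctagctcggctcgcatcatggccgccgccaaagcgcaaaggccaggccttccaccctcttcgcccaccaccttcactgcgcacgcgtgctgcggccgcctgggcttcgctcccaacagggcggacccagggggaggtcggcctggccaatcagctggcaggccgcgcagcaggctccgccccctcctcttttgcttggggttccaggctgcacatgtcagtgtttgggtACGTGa
Ldha: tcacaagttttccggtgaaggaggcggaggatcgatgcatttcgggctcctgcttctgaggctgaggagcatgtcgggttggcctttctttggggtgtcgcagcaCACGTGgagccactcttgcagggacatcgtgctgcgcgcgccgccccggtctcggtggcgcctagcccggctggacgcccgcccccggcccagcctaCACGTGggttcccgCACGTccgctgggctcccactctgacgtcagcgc
Genes of oxidative phosphorylation, which makes ATP in mitochondria, did not pass on the TMM scale: 0 of 36 were called in edgeR, where 6 had an unadjusted p below 0.05, against 1 called in DESeq2 and 13 in limma voom, and the median log2 fold change was 0.06. Of all 20203 genes tested, 5661 had an unadjusted p below 0.05 in edgeR, and DESeq2 called 3638 and limma voom 7121. Atp5b, an ATP synthase subunit, had 1217, 1248 and 1212 CPM in tumor libraries, against 1351, 1274 and 1330.3 CPM in spleen libraries. Per CD3 count all 36 were lower, where 12071 of all 20203 genes tested were lower.

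Of 34 cell cycle genes 4 were higher and none lower, where 7.99% of all genes tested were higher and 6.89% lower. The 4, Mcm2, Mcm4, Mcm6 and Cdt1, belong to the licensing of DNA replication. Mcm6 had 452, 406 and 391 CPM in tumor libraries, against 232, 264 and 257 CPM in spleen libraries (log2 fold change 0.73 ± 0.17, adjusted p = 0.00683), while the proliferation marker Mki67 had 54.4, 29.6 and 29.4 CPM in tumor libraries, against 28.3, 51.1 and 34.9 CPM in spleen libraries and did not differ beyond its spread (adjusted p = 0.996). Per CD3 count none of the 34 was higher. Mcm2 missed the threshold when tumor replicate 1 or spleen replicate 1 or 3 was left out (adjusted p 0.0756 to 0.0966), Mcm4 when any of the 6 libraries was left out (0.0807 to 0.135) and Cdt1 when tumor replicate 1 or spleen replicate 1 or 2 was left out (0.0676 to 0.0806).

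Genes that bear on the drug arm were read in these vehicle cells as a baseline. Of 17 IAP and TNF signaling genes Casp8, Mlkl and Tnfrsf1b were higher and Birc3 lower in tumor. Birc3, which encodes the LCL161 target cIAP2, had 47.7, 67.6 and 63.0 CPM in tumor libraries, against 89.2, 117 and 91.8 CPM in spleen libraries (log2 fold change -0.74 ± 0.17, adjusted p = 0.00514). Tnfrsf1b, the TNF receptor TNFR2, had 448, 353 and 383 CPM in tumor libraries, against 163, 177 and 180.1 CPM in spleen libraries (log2 fold change 1.19 ± 0.19, adjusted p = 0.000327). Casp8, the initiator caspase of death receptors, had 202, 194 and 203 CPM in tumor libraries, against 124, 118 and 129 CPM in spleen libraries (log2 fold change 0.69 ± 0.10, adjusted p = 0.000235). Dendritic and B cells carry Birc3 as well, and the part of their lower sums in its fall was not tested. Per CD3 count 13 of the 17 were lower and none higher, where 12071 of all 20203 genes tested were lower and 526 higher. Of 15 BCL2 family genes, which set the mitochondrial threshold for death, 2 were higher and 1 lower, with a median log2 fold change of 0.02. Beside this list and the IAP and TNF list, 7.99% of all genes tested were higher and 6.89% lower. The survival gene Mcl1 fell by 0.55 ± 0.11 log2, while Bcl2l1, which encodes the survival protein BCL-XL, rose by 0.86 ± 0.20, and was at -0.11 per CD3 count. Bik, which promotes apoptosis, rose by 1.78 ± 0.51. Mlkl missed the threshold when tumor replicate 1 or 3 or spleen replicate 1 or 2 was left out (adjusted p 0.0536 to 0.0749) and Bik when tumor replicate 2 or 3 or spleen replicate 1 or 3 was left out (0.0558 to 0.133).

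The same tissue comparison in LCL161-treated mice, which shares no library with the vehicle one, called 1780 genes (8.81%), 997 higher (4.93%) and 783 lower (3.88%). The count was 316 without spleen replicate 2, 581 without tumor replicate 1, 822 without tumor replicate 2 and 1092 without spleen replicate 3. Of the 3006 vehicle calls 34.9% and of the 1780 LCL161 calls 58.9% were called in both in the same direction, and 93.8% of the vehicle calls had the same sign with LCL161. Each interferon list was again called in one direction, with 11 of 26 and 7 of 16 higher. Of the residency genes 7 of 16 were higher and none lower. Of the cDC1 markers 5 of 16 were lower and of the cytotoxic genes 1 of 19 was higher and 1 lower. With the replicate number as a block 14 and 10 interferon genes and 7 residency genes were higher, 3 cDC1 markers were lower, and of the cytotoxic genes none was higher and 1 lower. No member of these lists passed the test of the difference between treatments. The test of the difference itself, LCL161 minus vehicle, called 5 genes (0.0247%) in edgeR, each of them less far below spleen with LCL161 or above it, and 1827 had an unadjusted p below 0.05. DESeq2 called 188, of which 130 had a more positive and 58 a more negative difference with LCL161. With 1 library left out the edgeR count ran between 0 and 102. Among the 5 genes Rab43, a vesicle traffic gene of cross-presenting dendritic cells, had 55.5 ± 4.97 CPM in tumor and 91.9 ± 36.2 CPM in spleen with LCL161, and 53.0 ± 7.11 CPM in tumor and 302 ± 17.6 CPM in spleen with vehicle (SD, n = 3 each; difference 1.78 ± 0.29 log2, adjusted p = 0.0310). Abca3, a lipid transporter, and Mtmr4, an endosomal phosphatase, differed by 1.79 and 1.54 log2 at the same adjusted p, and Mtmr4 missed the threshold with the replicate block (adjusted p = 0.0714). For Gzmb the tissue difference was 1.15 ± 0.63 log2 with LCL161 (adjusted p = 0.273), where spleen libraries averaged 553 ± 305 CPM, and the test of the difference from vehicle gave an adjusted p of 0.342.

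In CD4-sorted cells of vehicle mice the tissue comparison called 3338 genes (16.5%), 1954 higher (9.67%) and 1384 lower (6.85%), and the difference between the CD8 and CD4 comparisons called 659 (3.26%), 228 (1.13%) with a more positive and 431 (2.13%) with a more negative difference in CD8. The count of 659 ran between 265 and 857 with 1 library left out, the lowest without tumor CD8 replicate 1. Gzmb had 138 ± 71.4 CPM in tumor CD4 and 109 ± 99.5 CPM in spleen CD4 cells (SD, n = 3 each), and its tissue difference was 3.64 ± 0.91 log2 larger in CD8 (adjusted p = 0.0338). Gzmk and Tigit were lower in tumor than in spleen among CD4 cells, at -3.12 and -1.65 log2, and differed from CD8 by 6.76 ± 1.46 and 4.45 ± 0.65 log2 (adjusted p = 0.0155 and 0.00113). Cd101 also rose more in CD8 than in CD4, by 1.92 log2. Of 16 cDC1 markers 4 were higher and 1 lower in tumor CD4 cells, and 10 had a more negative difference in CD8. Xcr1 had 21.2 ± 10.3 CPM in tumor CD4 and 3.68 ± 0.946 CPM in spleen CD4 cells, a difference from CD8 of -6.41 ± 0.86 log2 (adjusted p = 0.000601).

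Part of the glycolysis and hypoxia list had a more negative tissue difference in CD8 than in CD4 cells. Of 36 genes 28 were higher in tumor CD4 cells, and 11 had a more negative and none a more positive difference in CD8. Hilpda had 75.6 ± 10.2 CPM in tumor CD4 and 8.13 ± 0.618 CPM in spleen CD4 cells, a difference of -1.85 ± 0.28 log2 (adjusted p = 0.00126). The 5 largest positive differences at 20 CPM or more in a group were Ccn5, Gzmk, Lratd1, Vdr and Izumo1r, at 10.58, 6.76, 4.82, 4.80 and 4.72 log2. All but Gzmk were highest in the spleen CD4 libraries, where Izumo1r, the folate receptor 4 of regulatory and anergic CD4 T cells, averaged 134 ± 53.6 CPM. Ccn5 had no count in the spleen CD8 libraries and Sult1a1 none in the spleen CD4 libraries, so their fitted differences depend on the prior count. The 5 largest negative ones were Sult1a1, Ighg2b, Gpr141b, Ighg2c and Pianp, at -13.16, -13.01, -12.58, -11.24 and -9.46 log2, and all 5 were highest in spleen CD8 libraries.

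**Figure D5:**
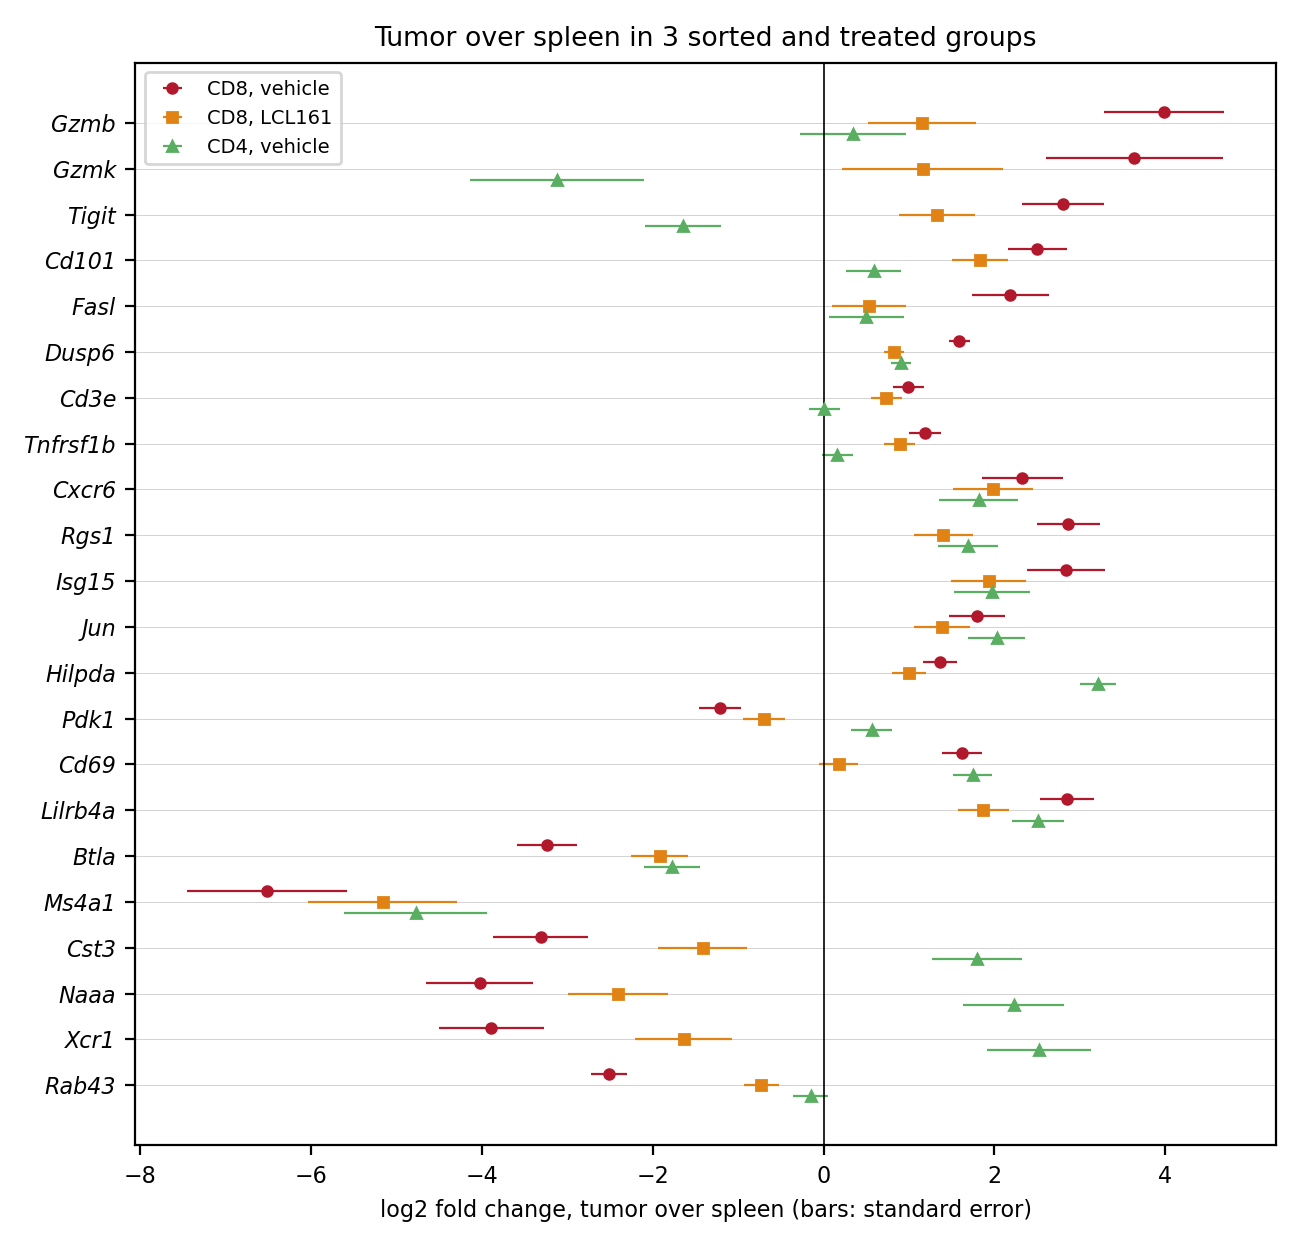
Log2 fold change, tumor over spleen, with standard error (horizontal axis) for 22 genes in vehicle CD8 (circles), LCL161 CD8 (squares) and vehicle CD4 cells (triangles), n = 3 against 3 each. Gzmk, Tigit, Xcr1, Naaa and Cst3 have opposite signs in vehicle CD8 and vehicle CD4 cells, while Cxcr6, Rgs1, Isg15 and Jun are positive in all 3.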

How the data were processed

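Counts of RNA-seq reads per gene symbol were compared between 3 tumor and 3 spleen libraries of CD45+CD8+ cells from vehicle mice. The deposited table holds expected counts, as 52.7% of its values above 0 are not whole numbers. Per the submitters' processing notes, the authors used cutadapt, STAR 2.7.3a and GRCm38. No label or header names the counting tool, the annotation or the use of strand, and reads of overlapping and antisense genes cannot be told apart. The expected counts were rounded to whole numbers. All 24 libraries (8 groups) entered 1 fit in edgeR 4.0.16 (R 4.3.3): TMM scaling, filterByExpr with a minimum count of 10, a robust quasi-likelihood test and Benjamini-Hochberg adjustment over 20203 genes at 0.05. Counting depth limits precision at low levels, and floors of 3 counts per library cover counting error only.

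CPM used TMM library sizes. Alternatives were other scalings (RLE, library totals, CD3 genes), other filters, DESeq2 1.42.0, limma voom 3.58.1, other fits, and leaving out libraries. The scripts were tested on simulated data. Gene coordinates came from GENCODE M21, and promoter windows from RefSeq (GRCm38.p6), read with Python 3.11.15, pandas 2.3.3 and numpy 2.4.6; figures used matplotlib 3.10.9. Same-numbered tumor and spleen CD8 libraries of the LCL161 arm deviated together from their group means (r = 0.135, 0.205 and 0.180), so these numbers may be pairs. The labels do not say whether a number is a mouse. Those of the vehicle CD8 arm matched less closely (r = 0.043, 0.110 and 0.017) and were not taken as pairs. Vehicle spleen CD8 libraries each matched best with the spleen CD4 library of their own number (r = 0.045, 0.106 and 0.118). The fit reported has no block in either arm, and the fit with the replicate number as a block is an alternative.

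Genes named are, among those past the threshold with groups apart and at least 20 CPM in the higher group, the 15 largest rises and falls by fold and the 10 largest each way by CPM, without predicted genes, pseudogenes, receptor segments, ribosomal and mitochondrial genes. To these are added up to 4 members of each list with the smallest adjusted p and abundant members that did not pass, a fixed panel, and the 5 largest differences of differences each way. Further members are named for their role, and Ifit1, Rsad2, Hspa1b, Pdk1, Pfkfb3 and Trdv4 after their values were seen. Some genes that these rules name are not reported here. The comparison and the lists were chosen with earlier results of these data known.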

Additional observations from a re-analysis of the deposited data

Results flagged for a closer look

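The genes here had a tissue difference (tumor minus spleen, log2) that differed between sorted populations or between treatments, by edgeR's test of that difference with Benjamini-Hochberg adjustment over all genes. Between CD8 and CD4 cells of vehicle mice the difference was more positive in CD8 for Ccn5 by 10.58, Gzmk by 6.76, Lratd1 by 4.82, Vdr by 4.80, Izumo1r by 4.72, Tigit by 4.45, Gzmb by 3.64, Tox by 2.99, Prdm1 by 2.22, Cd101 by 1.92, AW112010 by 1.25, Ly6a by 1.12, Tnfrsf1b by 1.03, Cd3e by 0.99 and Dusp6 by 0.68 log2. It was more negative in CD8 for Sult1a1 by -13.16, Ighg2b by -13.01, Gpr141b by -12.58, Ighg2c by -11.24, Pianp by -9.46, P3h2 by -6.82, Xcr1 by -6.41, Naaa by -6.25, Cst3 by -5.11, Apol7c by -4.41, Igkc by -3.74, Ppt1 by -3.68, Batf3 by -3.28, Dnase1l3 by -3.25, Wdfy4 by -2.97, H2-Ab1 by -2.82, H2-Eb1 by -2.70, Rab43 by -2.36, Hilpda by -1.85, Pdk1 by -1.77, Pfkfb3 by -1.71, Mtmr4 by -1.21 and Ldha by -1.06 log2. Adjusted p-values of these differences ran between 0.000169 and 0.0454. Of them Gzmk, Tigit, Pfkfb3, Naaa, Xcr1, Cst3, Sult1a1, Gpr141b and Pianp passed the tissue test in both populations with opposite signs. Between LCL161 and vehicle CD8 cells the difference was more positive with LCL161 for Rab43 by 1.78, Abca3 by 1.79 and Mtmr4 by 1.54 log2 (adjusted p = 0.0310 for each). Each of these had a lower mean in the spleen of LCL161 mice than in the spleen of vehicle mice. The names are a part of the genes past each test, and genes not named were not screened for this list.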

How the results depend on the processing

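The main count of 3006 genes became 12597 with CD3 scaling, 7121 in limma voom with sample weights, 5790 when only the compared libraries were fitted, 0 with marker covariates and 1956 with a log2 fold change of at least 1, and 1903 to 2184 with 1 library left out. With RLE scaling, library totals, no filter, 5 CPM in 3 libraries, DESeq2 and the replicate block it was within 1.5 times. RLE scaling called 1511 higher and 1485 lower. The LCL161 count of 1780 became 5905 with CD3 scaling, 1169 with no filter and 316 to 1837 with 1 library left out. The CD8 minus CD4 count of 659 became 6516 with CD3 scaling, 1370 in DESeq2 and 265 to 857 with 1 library left out. The LCL161 minus vehicle count of 5 became 12 with CD3 scaling, 188 in DESeq2 and 0 to 102 with 1 library left out. The cause of these moves was not tested.

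With the replicate number as a block, 2848 genes passed in vehicle CD8 cells, 1493 in LCL161 CD8 cells, 509 for CD8 minus CD4 and 4 for LCL161 minus vehicle. Same-numbered vehicle tumor and spleen CD8 libraries correlated at 0.043, 0.110 and 0.017 in their deviations from group means, and 2 of the 3 tumor libraries correlated best with their own number. These numbers were not taken as pairs.

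Of the 171 genes named, 142 passed, of which 110 passed with each of the 6 libraries left out in turn and 32 did not. Of the 29 named genes that did not pass, 16 were called when only the 6 compared libraries were fitted. In limma voom 14 of the 29 were called and in DESeq2 5, so a gene that did not pass is not shown to be unchanged. Per CD3 count 33 genes had the opposite sign. The log2 fold changes put Cd8a at -0.35, Cd8b1 at -0.52, Cd3d at -0.21, Trbc2 at -0.23, Cd4 at -0.14, Runx3 at -0.24, Cxcr3 at -0.26, Prf1 at -0.093, Ccl5 at -0.19, Lag3 at -0.54, Tox at -0.29 and Tbx21 at -0.43. Other values put Eomes at -0.32, Gata3 at -0.11, Stat2 at -0.28, Gbp5 at -0.36, B2m at -0.30, H2-K1 at -0.49, H2-D1 at -0.75, Nlrc5 at -0.12, Nr4a1 at -0.84, Bag3 at -0.15, Hspa8 at -0.65 and Ldha at -0.55. Further values put Mcm6 at -0.26, Cdt1 at -0.27, Mcm2 at -0.37, Mcm4 at -0.27, Casp8 at -0.29, Bcl2l1 at -0.11, Lratd1 at -0.89, Laptm5 at -0.54 and Shisa5 at -0.31. With the marker covariates 71 genes had the opposite sign. No gene passed in that fit and its median standard error was 1.26 log2, so the signs below decide nothing. The covariates were themselves built from the listed conventional dendritic cell, B cell and macrophage genes. For a member of those lists the value in that fit is no check. That fit put Cd3e at -0.085, Cd3g at -0.39, Cd3d at -0.23, Cd4 at -0.49, Runx3 at -0.57, Ctsw at -0.30, Fasl at -0.23, Tnfsf10 at -0.47, Gzmk at -0.017, Nkg7 at -0.72, Ifng at -0.67 and Lta at -0.50. It put Tnf at -0.61, Ccl5 at -2.60, Cxcr6 at -0.82, Rgs1 at -0.67, Cd69 at -0.095, Bhlhe40 at -0.69, Itga1 at -1.09, Itgae at 0.84, Lag3 at -0.55, Dapl1 at 0.35, Slfn1 at -0.18 and Ccr7 at 2.15. Also in that fit the test put Tbx21 at -0.57, Rora at -0.54, Maf at -0.28, Gata3 at -0.058, Klrc1 at -1.58, Klrc2 at -1.10, Il12rb1 at -0.043, Zbp1 at -0.15, Cmpk2 at -0.090, Stat2 at -0.54, Ifit1 at -0.41 and Rsad2 at -0.66. The covariates left Gbp5 at -0.073, B2m at -0.20, H2-K1 at -0.44, H2-D1 at -0.49, Nlrc5 at -0.30, Ly6a at -0.094, Jun at -1.09, Fos at -1.54, Dusp1 at -1.21, Tnfaip3 at -0.56, Bag3 at -0.65 and Hspb1 at -3.14. This setting also put Hspa1a at -3.25, Hspa1b at -3.19, Hspa8 at -0.0088, Aldoa at -0.34, Hilpda at -0.40, Hif1a at -1.01, Cdt1 at -0.19, Atp5b at 0.28, Ctss at 0.17, Ms4a1 at 0.76, Cd79a at 0.55 and C1qa at -0.18. The same fit gave Bik at -0.87, Lratd1 at -0.88, Izumo1r at 4.77, Gas6 at -1.41, Irf8 at 1.19, Laptm5 at -0.17, Mlkl at -2.25, Ms4a4b at -0.39, Ms4a7 at -0.20, Prdm1 at -0.18 and Shisa5 at -0.10. With 1 library left out Mki67 (-0.38 to 0.25) and Lratd1 (-0.16 to 0.31), which did not pass, also had the opposite sign for some libraries. Depth limits genes of a few CPM, where a group at 0 allows only a bound.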
